A study of Mus musculus with 12 samples.

Results

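Syndecans and glypicans are the proteoglycans that carry heparan sulfate on the cell surface. The genes described here are the 4 syndecans (Sdc1, Sdc2, Sdc3 and Sdc4) and 5 glypicans (Gpc1, Gpc2, Gpc3, Gpc4 and Gpc6), which were matched by exact gene name and make up 9 of the 55335 genes counted. Syndecans cross the membrane once and have a short cytoplasmic tail that binds PDZ proteins and, in syndecan-4, protein kinase C alpha, whereas glypicans are held on the outer leaflet by a GPI anchor. Their heparan sulfate chains bind FGF, HGF, Wnt and VEGF ligands and present them to receptors, and the sulfation of the chains sets which ligands are bound. In skeletal muscle, syndecan-3 and syndecan-4 are used as surface markers of muscle stem cells (MuSCs), and syndecan-1 is known from proliferating myoblasts.

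RNA was sequenced from MuSCs of adult Pax7-ZsGreen mice, in which a fluorescent reporter of Pax7 marks the cells to be sorted from hindlimb muscle. There were 4 groups with 3 libraries each. Freshly isolated cells (F) went into TRIzol as they left the sorter. The other cells were grown on plastic coated with Matrigel and fibronectin in a rich medium that contains FGF. They were grown to day 2 (2d-U) or day 5 (5d-U) without compression, or to day 5 with compression for the last 3 days (2+3d-C). The compression device was a film with short pillars underneath, which limited the height of the cells below it. All groups carry the same reporter, and the study states that the cells of each sort were randomly assigned to the conditions. Which libraries share a batch, animals or a culture is not given in the sources used here, so p-values measure the spread between these libraries, which may in part be technical. Libraries are named below by group and by the replicate number in their label.

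Between 12540745 (2+3d-C 5) and 62424851 (2+3d-C 4) reads per library were counted on genes. In 4 libraries (F 4, F 5, 5d-U 1 and 5d-U 6) there were 0.634 to 7.13 reads per kb on gene families that muscle does not use, such as olfactory receptors, against 0.00936 to 0.220 in the other 8. Pax7 had reads in every library (8.93 to 88.3 CPM), and the summed level of 9 markers of muscle stem and myogenic cells was 9573 to 14610 CPM in 2+3d-C and 2294 to 5107 CPM elsewhere. Markers of other cells were also present: the sum of 8 fibroadipogenic markers was 2844 to 10480 CPM in F, 1107 to 1218 in 2+3d-C, 276 to 366 in 2d-U and 80.3 to 222 in 5d-U, and that of 7 endothelial markers was 1177 to 1693, 181 to 242, 3.74 to 6.23 and 2.41 to 35.2 CPM in the same order. The fibroadipogenic sum in 2d-U came from fewer genes: 4 to 5 of the 8 markers had over 3 reads there, against 7 to 8 in 5d-U. In bulk RNA, fewer cells of a type and less RNA per cell cannot be told apart.

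Compression against culture of the same length was the main question of the design. Levels are given as RPKM, reads per kb of exon scaled to the size of the library, with a TMM factor for its composition, and differences as log2 fold changes from 1 edgeR quasi-likelihood fit of all 12 libraries. A gene is called where the Benjamini-Hochberg adjusted p, taken over all 22635 genes tested, is under 0.05. In 2+3d-C against 5d-U, Sdc4, Gpc1 and Gpc3 were called higher and the other 6 members were not called, so that 3 of 9 were called, all higher, against 22.6% of all genes tested (9.14% higher). Sdc4 was also called higher, and Sdc3 lower, in 2+3d-C against 2d-U (2 of 9, against 24.6% of all genes). Against F, 0 of 9 members were called by edgeR in 2+3d-C (6.4% of all genes), 4 had an unadjusted p under 0.05 (36.8% of all genes), and DESeq2 called 3 (18.4% of all genes). Without F 1, edgeR called 4 (Sdc4 higher and Sdc2, Sdc3 and Gpc3 lower) in a fit that called 36.3% of all genes. The 3 comparisons share the 2+3d-C libraries. For 2+3d-C against 5d-U, the median log2 fold change was 0.52 over the 9 members and -1.05 over all genes tested, and over the 8 other settings tried it was -0.18 to 0.96 and -2.02 to 0.

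The remaining comparisons describe the culture without compression. In 2d-U against F, Sdc4, Sdc2, Gpc3 and Gpc6 were called lower, 4 of 9 members, in a comparison that called 43.8% of all genes (33.3% lower), and the median was -1.33 over the members and -1.63 over all genes (-1.52 to 0.54 and -3.64 to 0.37 over the 8 other settings). In 5d-U against F, Sdc4 and Gpc3 were called lower (2 of 9, against 20.5% of all genes and 8.9% lower). In 5d-U against 2d-U, 0 of 9 members were called by edgeR (2.12% of all genes), 4 had an unadjusted p under 0.05 (35.1% of all genes), and DESeq2 called 2, Sdc3 and Gpc1, both lower (12.9% of all genes).

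**Figure D1:**
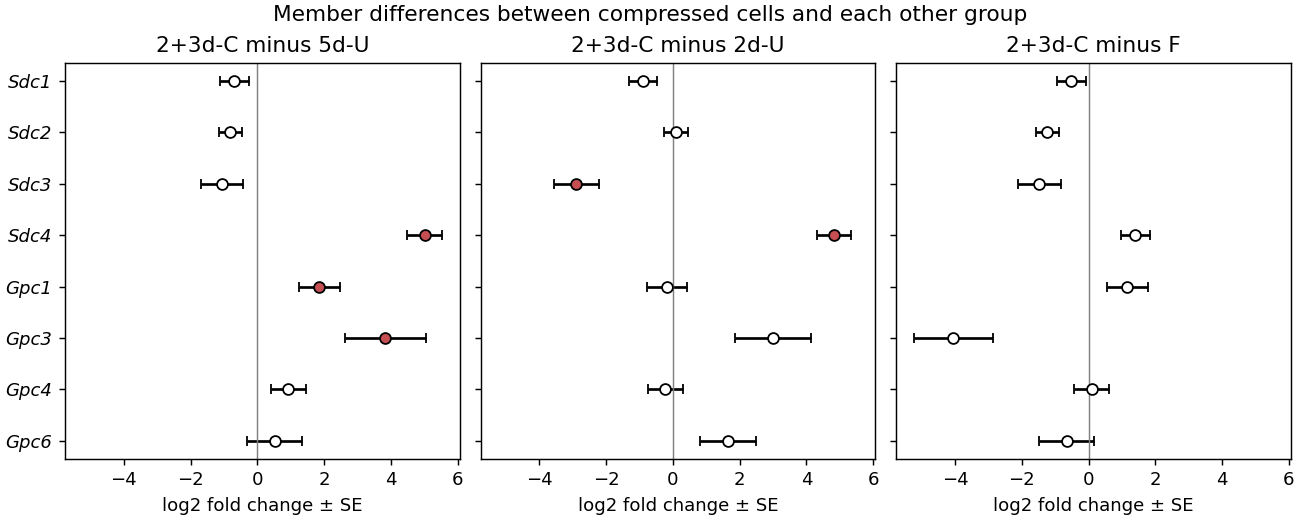
The plot gives the log2 fold change of each member (horizontal axis) in 2+3d-C against 5d-U, 2d-U and F (left to right), with bars of 1 SE and filled points for called genes. Sdc4 lies at 5.01, 4.83 and 1.41, and is filled in the first pair of panels; Gpc2, with at most 15 reads in any library, is not drawn.

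Syndecan-4, encoded by Sdc4 (mm10 chr2:164424247-164443887, minus strand), binds fibronectin together with integrins and takes part in focal adhesions. Its level was 1984, 1247 and 2477 RPKM in 2+3d-C 4, 5 and 10. It was 72.9, 51.2 and 53.1 RPKM in 5d-U 1, 2 and 6, and 68.1, 64.8 and 68.1 RPKM in 2d-U 1, 2 and 3. F libraries held 1085, 337 and 732 RPKM (F 1, 4 and 5). The order was therefore 2+3d-C, F, 2d-U and 5d-U, in which the libraries of the first pair of neighbours and of the second do not overlap, and those of 2d-U and 5d-U do.

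Sdc4 was 32.2-fold higher with compression than without at day 5 (log2 fold change 5.01, SE 0.51, adjusted p = 2.3e-05) and 28.4-fold higher than in 2d-U (log2 fold change 4.83, SE 0.51, adjusted p = 2.5e-05), with 3 of 3 libraries above all uncompressed cultures both times. Against F, it was 10.7-fold lower in 2d-U (log2 fold change -3.42, SE 0.48, adjusted p = 2.1e-04) and 12.2-fold lower in 5d-U (log2 fold change -3.60, SE 0.48, adjusted p = 2.3e-04). All 4 calls were kept in each of the 8 other settings tried and with any 1 library left out. By TMM-scaled RPKM, all 3 compressed libraries also lay above all 3 F libraries. That difference (log2 fold change 1.41, SE 0.44, 95% interval 0.39 to 2.42) did not pass the test (adjusted p = 0.0658, and 0.0228 to 0.566 over the 8 other settings). The summed fibroadipogenic and endothelial markers were lower in all 3 compressed libraries than in F, while Sdc4 was higher, and their part in the differences of Sdc4 was not tested.

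Among all genes ranked by RPKM, Sdc4 held the ranks 11, 56 and 4 in 2+3d-C 4, 5 and 10 and 25, 93 and 28 in F 1, 4 and 5. In the 6 uncompressed cultures its rank was between 775 and 1913. Its share of all counted reads, which takes no TMM factor, was 0.432%, 0.210% and 0.588% in 2+3d-C 4, 5 and 10. It was 0.270%, 0.103% and 0.225% in F 1, 4 and 5, and 0.00904% to 0.0216% in the uncompressed cultures. By this share and by rank, 2+3d-C 5 lay below F 1 and F 5, so the separation of compressed from F libraries depends on the scaling. No exon of Sdc4 overlaps another gene of the annotation.

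**Figure D2:**
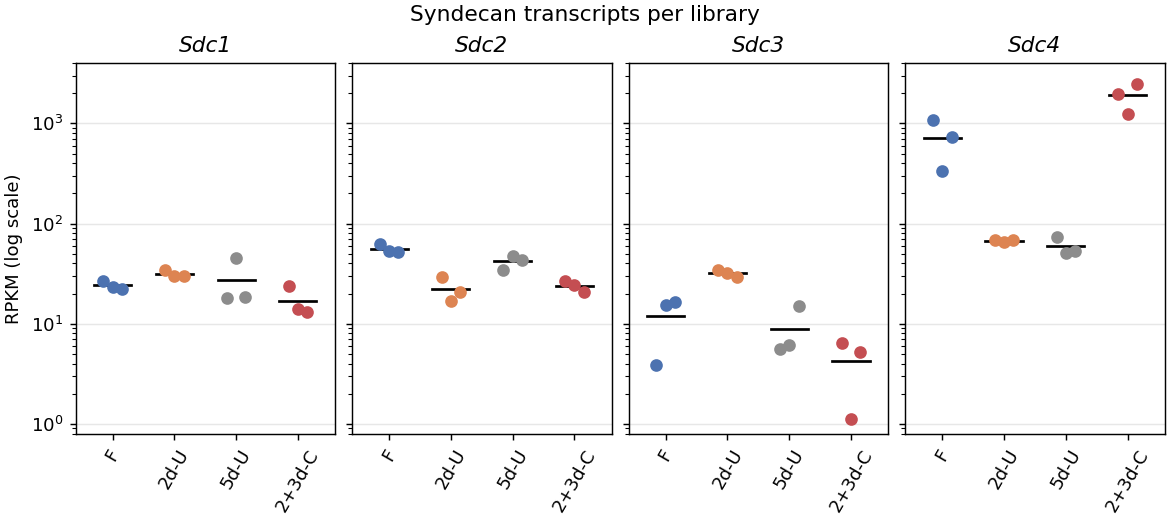
RPKM (vertical, log scale) of the 4 syndecans in each library (points), by group from fresh to compressed cells, with a bar at the mean of each group. Sdc4 lies at 1247 to 2477 RPKM in 2+3d-C and 51.2 to 72.9 in both uncompressed cultures, while Sdc1, Sdc2 and Sdc3 stay below 63 RPKM in all libraries.

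The bases before the transcription start are shown for the 3 members that results below and above turn on: Sdc4, which was called higher in both compressed comparisons with culture, Sdc3, which was called lower in one, and Gpc3, which was called higher in the other. RefSeq (GRCm38.p6) gave a promoter for 6 of the 9 members, and Sdc2, Gpc1 and Gpc6 were not matched. The 250 bases before the start are given 5′ to 3′ on the strand of the gene, with each GC box in capitals, the letters GGGCGG or their reverse complement that Sp1 is known to bind. They lie at chr2:164443189-164443438 (minus strand, in an intron of a longer transcript of the GENCODE annotation), chr4:130792287-130792536 (plus strand) and chrX:52613975-52614224 (minus strand).
Sdc4: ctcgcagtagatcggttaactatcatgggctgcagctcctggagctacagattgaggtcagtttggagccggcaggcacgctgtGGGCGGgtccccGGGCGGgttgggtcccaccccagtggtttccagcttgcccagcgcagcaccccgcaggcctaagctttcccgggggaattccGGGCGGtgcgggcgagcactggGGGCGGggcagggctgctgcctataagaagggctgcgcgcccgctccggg
Sdc3: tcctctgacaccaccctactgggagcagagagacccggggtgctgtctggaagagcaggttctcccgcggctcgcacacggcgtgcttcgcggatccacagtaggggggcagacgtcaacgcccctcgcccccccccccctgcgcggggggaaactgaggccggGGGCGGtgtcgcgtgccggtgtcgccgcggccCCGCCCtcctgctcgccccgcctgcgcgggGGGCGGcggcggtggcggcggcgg
Gpc3: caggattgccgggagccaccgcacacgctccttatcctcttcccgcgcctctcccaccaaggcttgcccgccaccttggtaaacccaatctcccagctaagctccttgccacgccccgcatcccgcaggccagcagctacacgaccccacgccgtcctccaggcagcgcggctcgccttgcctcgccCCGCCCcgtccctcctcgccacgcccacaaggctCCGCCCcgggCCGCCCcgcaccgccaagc
The Sdc4 sequence holds 4 GC boxes, which begin 166, 154, 72 and 50 bases before the start, and those of Sdc3 and Gpc3 hold 3 each. All 6 promoters with a sequence had at least 1, against 32.7% of the 32851 promoters of the table. A short form of the NF-kB motif, which can overlap a GC box, was found on either strand 5 times in Sdc4, 1 time in Sdc3 and 3 times in Gpc3, and in 45.8% of all promoters. In Sdc4, the matches 166 and 165 bases before the start overlap on opposite strands, as do those at 145 and 144, so they are not separate sites. The E-box CANNTG, which MyoD binds, was found in 66.2% of all promoters and in 2 of the 6, neither of them among the 3 printed. Motifs of AP-1 (TGANTCA) and RBPJ (TGGGAA) were found in 0 of the 6, against 6.75% and 21.6% of all promoters. The TEAD motif (GGAATG) was found in 1 of the 6, that of Gpc4, against 12.6%. These matches are letters in a window and were not tied to the levels.

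Sdc4 made up most of the syndecan transcripts wherever it was high. Its share of the summed syndecan RPKM was 97.5% ± 0.79 in 2+3d-C and 86.5% ± 7.1 in F, against 44.0% ± 2.6 in 2d-U and 43.6% ± 11.1 in 5d-U (SD, n = 3). The sum itself was 1948 ± 620 RPKM in compressed and 810 ± 375 RPKM in fresh cells, and 153 ± 11.7 and 137 ± 11.4 RPKM in the cultures of day 2 and day 5. In the uncompressed cultures the rest was divided differently: Sdc3 held 20.8% ± 1.3 at day 2 and 6.61% ± 4.2 at day 5, and Sdc2 held 14.5% ± 3.0 and 30.4% ± 3.7.

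**Figure D3:**
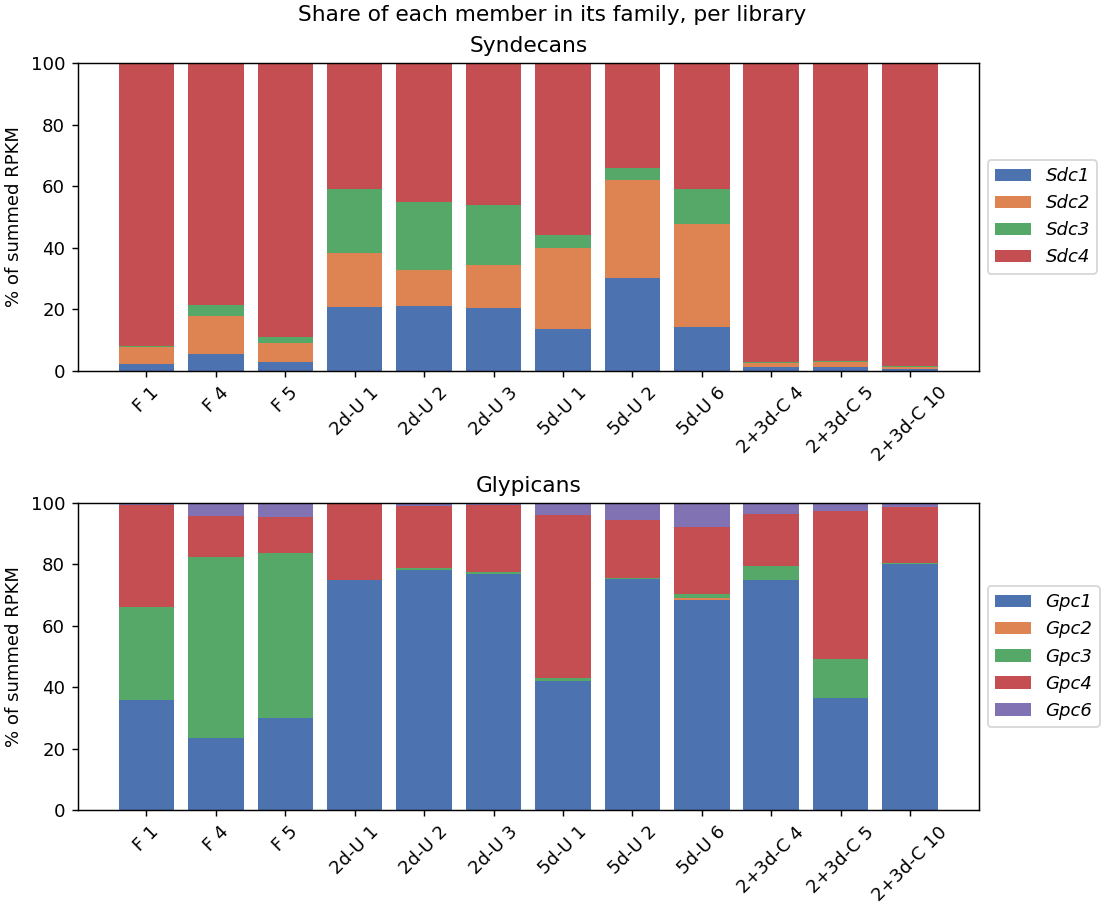
Stacked bars give the share of each member in the summed RPKM (vertical, percent) of the syndecans (above) and of the glypicans (below) for each of the 12 libraries. Sdc4 takes 97.0% to 98.4% of the syndecan sum in 2+3d-C and 34.1% to 55.7% in 5d-U, and Gpc3 takes 30.1% to 58.6% of the glypican sum in F and at most 12.8% in any other library.

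Sdc3 (chr4:130792537-130826319, plus strand) encodes syndecan-3, which is known for its interplay with Notch processing and FGF and HGF signals in MuSCs. In 2+3d-C against 2d-U it was called in the opposite direction to Sdc4. Its levels were 34.1, 32.0 and 29.1 RPKM in 2d-U 1, 2 and 3, and 6.45, 1.13 and 5.18 RPKM in 2+3d-C 4, 5 and 10. Compressed cells were 7.43-fold lower than 2d-U (log2 fold change -2.89, SE 0.68, adjusted p = 0.00674), with 3 of 3 libraries below all 2d-U libraries, and the call was kept in each of the 8 other settings and with any 1 library left out.

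In 5d-U 1, 2 and 6, Sdc3 stood at 5.64, 6.08 and 14.9 RPKM, a range that overlaps that of compressed cells. The difference between 2+3d-C and 5d-U was not called (log2 fold change -1.05, SE 0.64, 95% interval -2.52 to 0.41, adjusted p = 0.199). F libraries were uneven, at 3.89, 15.3 and 16.6 RPKM in F 1, 4 and 5. Of its exonic bases, 7.73% overlap the antisense genes Gm12970 and Gm26716. In a count without strand, reads on such shared bases are left unassigned, so the RPKM of Sdc3, taken over all its exons, can be too low.

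Sdc2 (chr15:32920723-33034935, plus strand), whose product is known from fibroblasts and endothelial cells, was highest in F, at 62.8, 53.6 and 51.7 RPKM. It was 29.4, 17.0 and 20.7 RPKM in 2d-U and 26.7, 24.1 and 20.9 RPKM in 2+3d-C 4, 5 and 10, 2 ranges that overlap. The 5d-U libraries lay between F and compressed cells at 34.4, 47.6 and 43.3 RPKM, and all 3 were above all 2+3d-C libraries, without a call (log2 fold change -0.81 in 2+3d-C against 5d-U, SE 0.35, adjusted p = 0.0990).

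Sdc2 was 2.51-fold lower in 2d-U than in F (log2 fold change -1.33, SE 0.35, adjusted p = 0.0118), with all 3 libraries lower. That call was lost without 2d-U 2 (adjusted p = 0.0863) or 2d-U 3 (adjusted p = 0.0767), and over the 8 other settings the adjusted p was 4.93e-07 to 0.338. Compressed cells differed from F by nearly as much (log2 fold change -1.23, SE 0.35, all 3 libraries lower) but did not pass the test (adjusted p = 0.0519). In that comparison Sdc2 was called lower in 4 of the 8 other settings (adjusted p = 8.48e-06 by DESeq2) and in 1 of 12 fits without 1 library. The fibroadipogenic markers given above were highest in F as well, and their part in the level of Sdc2 was not tested.

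Sdc1 (chr12:8771323-8793715, plus strand) varied least among the syndecans. Fresh libraries held 26.9, 23.3 and 22.4 RPKM and those of day 2 held 34.4, 30.1 and 30.0 RPKM. At day 5 it was 17.9, 45.3 and 18.6 RPKM without compression and 23.7, 14.0 and 13.2 RPKM with it. No comparison called it, and its group means differed by at most 1.86-fold. For 2+3d-C against 2d-U, where all 3 compressed libraries were lower, the log2 fold change was -0.89 (95% interval -1.88 to 0.09, adjusted p = 0.139), so that a fall of up to 1.88 on the log2 scale lies within the interval.

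Gpc1 (chr1:92831645-92860779, plus strand), which encodes glypican-1, a co-receptor for FGF2, was the most abundant glypican by mean RPKM over the 12 libraries. Its levels were 84.5, 67.4 and 69.0 RPKM in 2d-U and 14.4, 27.4 and 12.03 RPKM in 5d-U. In 2+3d-C 4 and 10 it was 86.4 and 98.1 RPKM, but in 2+3d-C 5, the library with the fewest reads, it was 10.1 RPKM (431 reads), below all 5d-U libraries. F libraries held 23.6, 28.8 and 34.4 RPKM. Compressed libraries thus span the range of all other groups.

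The call of Gpc1 in 2+3d-C against 5d-U (3.62-fold higher, log2 fold change 1.86, SE 0.62, adjusted p = 0.0440, 2 of 3 libraries above all 5d-U libraries) was the least stable of the 3. It was kept in 3 of the 8 other settings and in 6 of 12 fits without 1 library, with an adjusted p of 0.148 without 2+3d-C 10, 0.125 without 2+3d-C 4, 0.133 without 5d-U 6, 0.0982 without 5d-U 1, 0.0573 without F 4 and 0.0559 without F 5, and of 0.00105 without 2+3d-C 5. The lower level in 5d-U than in 2d-U (log2 fold change -2.04, SE 0.62, 3 of 3 libraries lower) did not pass the test (adjusted p = 0.0867; 0.00875 by DESeq2). Of the exonic bases of Gpc1, 18.9% overlap Ankmy1 on the other strand, and reads on them are left unassigned in a count without strand.

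Gpc3 (chrX:52272426-52613950, minus strand), which encodes glypican-3, a regulator of hedgehog and Wnt signals, was a transcript of fresh cells. It was 19.7, 71.5 and 61.5 RPKM in F 1, 4 and 5. In 2d-U it was 0, 0.626 and 0.552 RPKM (0, 43 and 67 reads), and in 5d-U 0.307, 0.104 and 0.236 RPKM (19, 8 and 13 reads). In 2+3d-C 4, 5 and 10 it was 5.31, 3.55 and 0.374 RPKM (762, 79 and 22 reads). All compressed libraries were therefore below all F libraries and above all 5d-U libraries, while 2+3d-C 10 lay within the range of 2d-U. From the density of reads on silent families, 10.25 of the 19 reads in 5d-U 1 and 1.71 of the 13 in 5d-U 6 would be counted without any Gpc3 transcript. That density was taken from autosomal genes, whereas Gpc3 lies on the X chromosome, and it may not hold there.

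Against F, Gpc3 was 131-fold lower in 2d-U (log2 fold change -7.03, SE 1.36, adjusted p = 0.00190) and 236-fold lower in 5d-U (log2 fold change -7.88, SE 1.42, adjusted p = 0.00140), with 3 of 3 libraries lower both times. These calls held with any 1 library left out and in 7 of the 8 other settings. They were lost without the 4 libraries with silent-family reads, which leaves 1 F library, at log2 fold changes of -5.63 and -7.54. Compressed cells were 14.3-fold above 5d-U (log2 fold change 3.84, SE 1.21, adjusted p = 0.0338), a call that was lost without 2+3d-C 4 (adjusted p = 0.0903), 5d-U 2 (0.0791) or 5d-U 6 (0.0818), and for which the adjusted p was 3.44e-07 to 0.385 over the 8 other settings. Compressed cells were 16.5-fold lower than F, short of the threshold (log2 fold change -4.05, SE 1.18, adjusted p = 0.0538), but were called lower in 5 of the 8 other settings (adjusted p 1.6e-06 to 0.651 over the 8) and in 6 of 12 fits without 1 library. With silent-family reads subtracted, the log2 fold change was 4.47 in 2+3d-C against 5d-U and -8.71 in 5d-U against F.

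Markers of other cells also differed between these groups. For 2+3d-C against 5d-U, 5 of 8 fibroadipogenic, 6 of 7 endothelial and 5 of 7 smooth muscle and pericyte markers were called higher (9.14% of all genes). In 5d-U against F, 8, 7 and 5 of them were called lower (8.9% of all genes). In 5d-U against 2d-U, the median log2 fold change of the 8 fibroadipogenic markers was 3.13, beside 1.13 over all genes tested, although their sum was lower in 5d-U. Other lists differed in 2+3d-C against 5d-U: 0 of 8 immune markers were called higher and 1 lower, and 0 of 7 mature myofiber markers higher and 3 lower. Of 6 glial markers 2 were called higher and 0 lower, and of 3 tested plasma cell markers 1 higher and 1 lower. Dcn, decorin, was 1612 to 4554 CPM in F, 154 to 439 in 2+3d-C, 1.01 to 40.3 in 5d-U and 0.705 to 11.1 in 2d-U, and Pdgfra, the surface marker that defines these cells, was 21.3 to 157 CPM in F, 0.0914 to 8.51 in 2+3d-C, 0.523 to 3.83 in 5d-U and at 0 in all 2d-U libraries. Among the compressed libraries the fibroadipogenic sum was 1205, 1218 and 1107 CPM in 2+3d-C 4, 5 and 10, while Gpc3 ranged from 0.374 to 5.31 RPKM. The part of such cells in the level of Gpc3 was not tested.

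**Figure D4:**
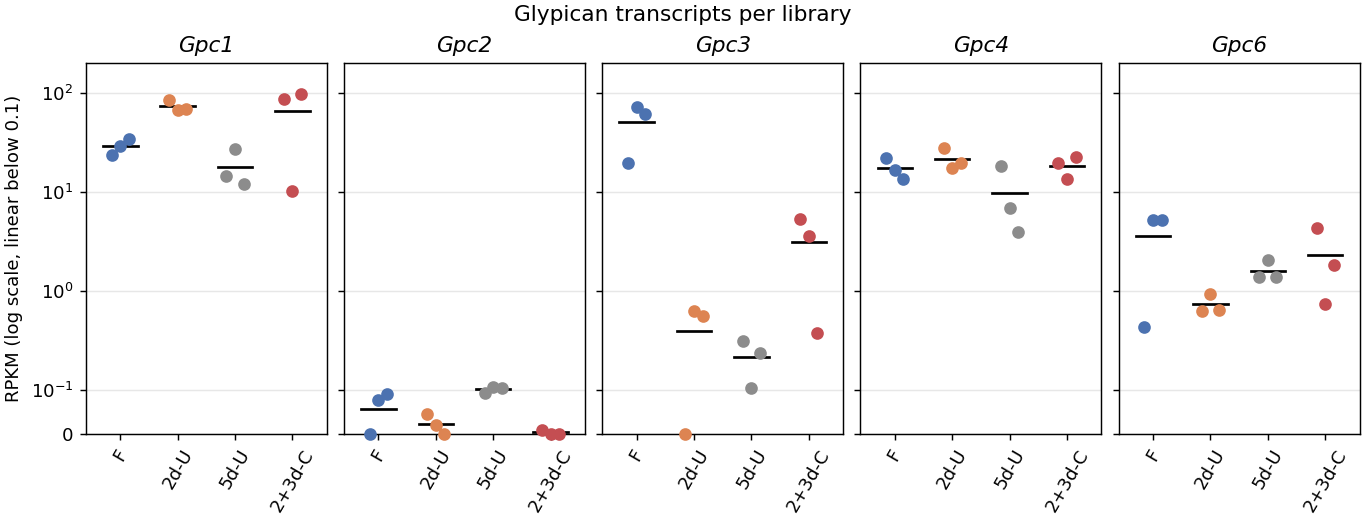
RPKM (vertical, log scale above 0.1 and linear below) of 5 glypicans in each library (points), with a bar at the mean of each group. Gpc3 lies at 19.7 to 71.5 RPKM in F and at most 5.31 elsewhere, Gpc1 in 2+3d-C is spread from 10.1 to 98.1 RPKM, and Gpc2 is below 0.11 RPKM in all libraries.

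Gpc4 (chrX:52053021-52165252, minus strand), next to Gpc3 on the X chromosome, did not share its pattern. It ranged from 3.88 to 27.7 RPKM over the 12 libraries, with group means of 17.3 ± 4.1 in F, 21.6 ± 5.4 in 2d-U, 9.65 ± 7.6 in 5d-U and 18.4 ± 4.6 in 2+3d-C (SD, n = 3). It was not called in any comparison. Its log2 fold change in 2+3d-C against F was 0.09 (95% interval -1.11 to 1.30).

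Gpc6 (chr14:116925315-117976544, plus strand) was low. It was 0.427, 5.15 and 5.21 RPKM in F 1, 4 and 5, and 4.26, 0.733 and 1.83 RPKM in 2+3d-C 4, 5 and 10. Uncompressed cultures held 0.627 to 0.921 RPKM at day 2 and 1.37 to 2.04 RPKM at day 5. Its call in 2d-U against F (log2 fold change -2.30, SE 0.85, adjusted p = 0.0427) rests on F 4 and F 5, with an adjusted p of 0.121 without the former and 0.128 without the latter, and was also lost without 2d-U 1, 2 or 3 or 5d-U 6 (0.0559 to 0.105). F 1 lay below all 2d-U libraries. F 4 and F 5 also have the most reads on silent families and the highest fibroadipogenic sums (9033 and 10480 CPM). By their density, reads of the silent-family kind would make up 3.14% and 3.46% of the Gpc6 counts of F 4 and F 5. In edgeR, the log2 fold change was -2.39 with such reads subtracted (adjusted p = 0.0466) and -1.39 with a model term for them (adjusted p = 0.476). The part of fibroadipogenic cells was not tested.

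Gpc2, encoded at chr5:138273655-138280005 (minus strand) and known from developing nerve cells, was at the limit of detection. It had 0 to 15 reads per library, and 0 to 2 in the compressed libraries, and no comparison called it. In 5d-U 1, F 4 and F 5, the density of reads on silent families, taken over its full exon length, would give more reads than were counted on it. However, 55.6% of its exonic bases overlap Gm43720, and reads on bases shared by 2 genes are left unassigned in such a count. The number expected over the other bases is smaller and was not computed. Any fitted fold change of Gpc2 rests on these few reads.

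Each of 2 members, Sdc4 and Gpc1, was compared with 8853 other genes that averaged 10 CPM or more over the 12 libraries, leaving out clone and predicted gene names. Those whose log2 CPM followed that of Sdc4 most closely were Mvp (Pearson r = 0.992), Runx1 (0.987), Slc8b1 (0.985), Nfkb1 (0.984) and Tmbim1 (0.984). Each was high in F and 2+3d-C and low in both uncompressed cultures, as Runx1 with means of 45.9, 94.0, 5.17 and 5.33 RPKM in F, 2+3d-C, 2d-U and 5d-U. For Gpc1 the closest were Mllt1 (0.985), Ubqln4 (0.964), Nploc4 (0.951), Gga1 (0.945) and Fbxw8 (0.945). These values describe 12 libraries that share groups and depth. Between the members themselves, the highest correlation was that of Sdc4 with Gpc3 (r = 0.602) and the lowest that of Sdc3 with Sdc4 (r = -0.585).

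Of 12 tested genes that build the heparan sulfate backbone, 1 was called higher and 1 lower in 2+3d-C against 5d-U, with a median log2 fold change of 0.06. These counts are near the shares over all genes, of which 9.14% were called higher and 13.4% lower. Extl3, which starts the heparan sulfate chain, was 13.2, 12.7 and 4.54 RPKM in 2+3d-C 10, 4 and 5 and 1.78 to 2.40 RPKM in 5d-U (log2 fold change 2.31, SE 0.58, adjusted p = 0.0104). B4galt7, a galactosyltransferase of the linker, was lower (log2 fold change -1.94, SE 0.60, adjusted p = 0.0318), a call lost without any single 5d-U library and without F 1, 2+3d-C 4 or 2+3d-C 5 (adjusted p 0.0644 to 0.105). Ext1 and Ext2, the copolymerases of the chain, had log2 fold changes of 1.05 (SE 0.40, adjusted p = 0.0668) and 0.67 (SE 0.48, adjusted p = 0.285).

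Of 22 tested genes of sulfation and trimming, 8 were called higher and 2 lower, with a median of 1.20 (9.14% higher and 13.4% lower over all genes). Sulf1 and Sulf2 encode the extracellular endosulfatases that remove 6-O-sulfates from finished chains, and the 2 genes moved in opposite directions. Sulf1 was 58.3, 9.47 and 37.7 RPKM in 2+3d-C 4, 5 and 10 and 0.404, 0.652 and 0.463 RPKM in 5d-U 1, 2 and 6 (log2 fold change 6.12, SE 0.81, adjusted p = 1.56e-04). Sulf2 was 2.26, 6.29 and 3.59 RPKM in the same 5d-U libraries and had 0 to 3 reads in each compressed library, so that it was at least 128-fold lower (adjusted p = 7.69e-05).

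Sulf1 was also high in F, at 22.9, 8.87 and 21.1 RPKM, and low in 2d-U, at 0.143 to 0.793 RPKM. Sulf2 was 2.74, 10.9 and 11.5 RPKM in F, so that reads of both were found in fresh cells. Ndst1, which exchanges acetyl for sulfate groups on glucosamine, was higher under compression at day 5 (log2 fold change 3.39, SE 0.66, adjusted p = 0.00237, 3 of 3 libraries higher), and Slc35b2, a carrier of the sulfate donor, was not called (log2 fold change -0.38, SE 0.47, adjusted p = 0.536). Ndst4 was the other gene called lower. It is named after its values were seen, since it had no reads in 2+3d-C and 23, 104 and 78 reads in 5d-U 1, 2 and 6 (a fold of at least 15.2 lower).

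**Figure D5:**
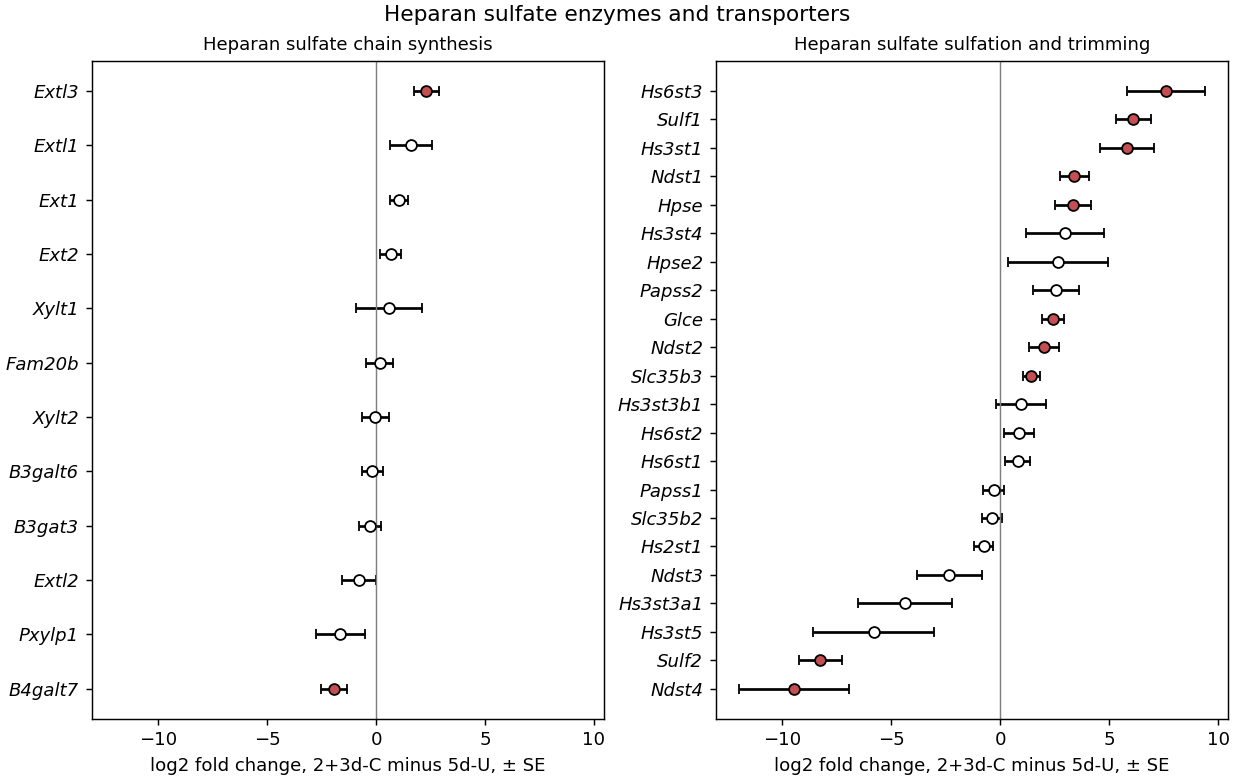
Log2 fold change in 2+3d-C against 5d-U (horizontal, bars of 1 SE) of 12 genes of heparan sulfate chain synthesis (left) and 22 of sulfation and trimming (right), with filled points for called genes. Filled points number 2 on the left and 10 on the right, with Sulf1 at 6.12; 4 genes on the right, Sulf2 and Ndst4 among them, have at most 3 reads in every compressed library, and their fitted values depend on the prior count.

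Enzymes that release the ectodomains were called in both directions, 4 higher and 2 lower of 14 tested (median 0.54), against 9.14% higher and 13.4% lower over all genes. Furin, a proprotein convertase that activates membrane proteinases, was 53.9, 9.15 and 56.9 RPKM in 2+3d-C 4, 5 and 10 and 1.77, 2.40 and 2.35 RPKM in 5d-U (log2 fold change 4.20, SE 0.61, adjusted p = 3.02e-04). Mmp14 and Mmp2, matrix metalloproteinases known to cleave syndecans, were higher by 1.61 (SE 0.41, adjusted p = 0.0114) and 3.65 (SE 0.71, adjusted p = 0.00234) on the log2 scale, 3 of 3 libraries each. Mmp2 was 68.8 to 301 RPKM in F, 20.6 to 56.2 in 2+3d-C and 0.943 to 6.44 in 5d-U, and the fibroadipogenic markers followed the same order. Pcsk6, another convertase, had no reads in the compressed libraries and was lower than in 5d-U by at least 17.6-fold (adjusted p = 0.00154).

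Of 15 tested partners of the syndecan tail, 2 were called higher and 2 lower (median 0.20). These counts are near the shares over all genes (9.14% higher and 13.4% lower). Msn, moesin, which links membrane proteins to actin, was 208, 73.9 and 171 RPKM in 2+3d-C 4, 5 and 10 and 22.6 to 69.1 RPKM in 5d-U (log2 fold change 1.84, SE 0.48, adjusted p = 0.0130). Actn1, alpha-actinin-1, which binds the tail of syndecan-4, was lower in compressed cells than in 5d-U (log2 fold change -2.01, SE 0.46, adjusted p = 0.00626) and than in 2d-U (log2 fold change -5.17, SE 0.53, adjusted p = 1.98e-05). Its levels were 0.677 to 2.63 RPKM in compressed cells, 4.69 to 7.59 in F, 52.9 to 74.8 at day 2 and 6.34 to 7.63 at day 5 without compression. Gipc1, a PDZ protein that binds syndecan-4, was lower too (log2 fold change -2.20, SE 0.56, adjusted p = 0.0119). Sdcbp, syntenin, the PDZ partner of all syndecans, stood at 109.5 RPKM or more in 2+3d-C and at 55.8 to 83.3 RPKM in 5d-U without passing the test (log2 fold change 1.15, SE 0.40, adjusted p = 0.0519).

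Of 11 other proteoglycans that can carry heparan sulfate, 4 were called higher in 2+3d-C against 5d-U by edgeR (median 0.92), against 9.14% of all genes. Tgfbr3, betaglycan, was 68.6, 7.88 and 42.6 RPKM in 2+3d-C 4, 5 and 10 and 0.0320 to 0.419 RPKM in 5d-U (log2 fold change 7.79, SE 1.09, adjusted p = 2.26e-04). Cd44, Srgn and Spock3 were higher by 2.26 (SE 0.45, adjusted p = 0.00266), 4.89 (SE 1.01, adjusted p = 0.00338) and 6.34 (SE 0.94, adjusted p = 5.82e-04) on the log2 scale, each in 3 of 3 libraries.

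Among ligands and receptors that depend on heparan sulfate, 5 of 20 tested were called higher and 1 lower in 2+3d-C against 5d-U (median 0.98). Over all genes, 9.14% were called higher and 13.4% lower. Fgfr1, a receptor of FGF2, was 236, 51.6 and 258 RPKM in 2+3d-C 4, 5 and 10, 4.95, 3.50 and 2.14 RPKM in 5d-U, 10.6 to 13.4 in 2d-U and 39.7 to 68.7 in F (log2 fold change 5.69 in 2+3d-C against 5d-U, SE 0.63, adjusted p = 4.10e-05). Fgfr4 was higher by 3.68 (SE 0.64, adjusted p = 0.00118) and Vegfa by 2.45 (SE 0.45, adjusted p = 0.00174) on the log2 scale. Fn1, fibronectin, the ligand of syndecan-4, was 1.07 to 5.92 RPKM in 2+3d-C and 1.82 to 3.46 in 5d-U and was not called (log2 fold change 0.58, SE 0.68, adjusted p = 0.516), against 7.11 to 60.7 RPKM in F.

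In 2d-U against F, where 33.3% of all genes were called lower, chain synthesis had 2 genes higher and 2 lower of 12 (median -0.19), and partners of the syndecan tail 3 higher and 3 lower of 15 (median -0.15). In the other 4 lists, 11 of 22 of sulfation and trimming, 9 of 14 release enzymes, 8 of 11 other proteoglycans and 12 of 20 ligands and receptors were called lower, with medians of -2.24, -3.45, -5.38 and -3.13 beside -1.63 over all genes, a value that moves with the settings as given above. With genes at 3 reads or fewer in 2d-U set to their limits, these medians were -2.24, -2.67, -4.21 and -2.55. In 2+3d-C against F, 4.47% of all genes were called lower, and the calls in these lists were all in that direction: Sulf2, Pcsk6, Fn1 and Actn1, and Fgf7, Hhip, Nrp1, Spock2 and Mmp16, which are named after their values were seen.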

How the data were processed

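RNA was measured in 12 mouse MuSC libraries, 3 in each of 4 groups, which were assigned from the labels. Single-end reads were aligned by the authors with an nf-core pipeline (mm10, GENCODE vM23), and the deposited raw counts are reads on exons per gene from featureCounts 1.6.4, which ignored strand. A merged table holds the same counts in all 12 columns and was not used further. From these counts, genes passing filterByExpr by group (22635 of 55335) were fitted in edgeR 4.0.16 (R 4.3.3) with TMM scaling, 1 coefficient per group and quasi-likelihood tests, two-sided, with Benjamini-Hochberg adjustment over all tested genes in each of 6 comparisons. All 9 members passed the filter. RPKM used TMM-scaled library sizes and the exon lengths in the files, and correlations used log2 CPM with a prior count of 2. Each SE was taken as the size of the log2 fold change over the square root of its test statistic. Intervals are 95% intervals per gene, without adjustment, from a t distribution with the residual degrees of freedom. The tests use more degrees of freedom, so an interval can be wider than the p-value implies. Folds against groups with 3 or fewer reads in each library were taken against 3 reads per library and cover counting error only. With 3 libraries against 3, an exact permutation test cannot go below p = 0.1 and was not used. No 2 libraries were identical.

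The study's own tests used DESeq2, which was run here (version 1.42.0) as an alternative. Other alternatives were scaling by library size alone, all genes without a filter, the 2 compared groups alone, the replicate number as a block, subtraction of or a model term for reads on silent gene families (2106 autosomal receptor, defensin and keratin-associated genes), each library left out in turn and, chosen after seeing the data, all 4 libraries with over 0.5 such reads per kb left out. Exon overlaps used GenomicRanges 1.54.1, and promoters came from RefSeq (GRCm38.p6), whose motifs were chosen after the values were seen.

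The members, the lists of related genes and the markers were chosen with earlier results of these data known. Named genes are the members, of each list the 3 highest by mean CPM and the 3 smallest p values in 2+3d-C against 5d-U, the 2 highest of each marker list, and the 5 genes with the highest correlation with the most abundant syndecan and glypican, and exceptions are marked. The marker Pax7 and the marker Pdgfra are named as defining genes. Marker lists also covered immune, glial, smooth muscle and pericyte, plasma and mature myofiber cells.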

Additional observations from a re-analysis of the deposited data

How the results depend on the processing

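Of 421 log2 fold changes of members under other settings, 347 kept direction and side of the threshold, 15 lost and 28 gained a call and 31 changed direction, and of 648 with 1 library left out the numbers were 604, 17, 16 and 11. No called value changed direction except that of Gpc6 in 2d-U against F (0.55 with the replicate block and 0.79 without the 4 libraries with silent-family reads). Why values moved was not tested. Leaving out those 4 libraries leaves 1 F and 1 5d-U library, whose spread is assumed to be that of the other groups, and fewer libraries mean fewer calls. Depth limits Gpc2 everywhere, and Gpc3 in the uncompressed cultures.

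In 2+3d-C against 5d-U, 3 members were called, 1 with the replicate block (16.9% of all genes) and 1 without the 4 libraries (5.9%), and 1 to 3 with 1 library left out (11.3% to 19.1%; 1 without 5d-U 6 or 2+3d-C 4). In 2+3d-C against F, 0 were called, but 3 by DESeq2 (18.4% of all genes), 2 each without TMM (6%), without the filter (5.6%), in the 2 groups alone (9.13%) and with the replicate block (8.66%), 1 with silent-family reads subtracted (6.16%), and 0 to 4 with 1 library left out (1.04% to 36.3%). Gpc3 was among those gained in the first 5 of these settings. In 5d-U against 2d-U, 0 were called, but 2 each by DESeq2 (12.9%), without the filter (4.14%) and in the 2 groups alone (5.28%), 1 with the replicate block (2.98%), and 0 to 1 with 1 library left out (0.565% to 4.78%). In 2d-U against F, 4 were called, 1 without the 4 libraries (8.79%) and 2 to 6 with 1 library left out (18.6% to 59.6%; 2 without 2d-U 2 or 2d-U 3). In 5d-U against F, 2 were called, 3 by DESeq2 (Sdc2 gained, 29.3%) and 1 without the 4 libraries (0.897%). In 2+3d-C against 2d-U, 2 were called, 3 by DESeq2 (32.9%) and without the filter (11.6%), both with Gpc3 gained, 3 without TMM (Sdc1 gained, 25.1%), and 2 to 3 with 1 library left out (13.5% to 21.1%).

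Same-numbered libraries of different groups did not deviate together (6 pairs, r from -0.42 to 0.03). F 5 and 5d-U 1, which have different numbers and both hold silent-family reads, had r = 0.48, so the check cannot show which libraries share a sort. The labels do not say that a number marks a shared batch, and the numbers were not taken to pair libraries. With the replicate block, these log2 fold changes changed direction: Gpc6 in 2+3d-C against 5d-U (-3.22) and 2d-U (-2.08), Gpc1 in 2+3d-C against F (-0.087), Gpc3 in 5d-U against 2d-U (0.76), Gpc2 in 2d-U against F (5.29, on at most 15 reads), and Sdc1, Sdc3 and Gpc6 in 5d-U against F (-0.15, 0.59 and 1.69).

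Other settings also changed directions. Without TMM they were Sdc2 in 2+3d-C against 2d-U (-0.49), Gpc4 in 2+3d-C against F (-0.32) and Sdc1 in 5d-U against F (-0.10). Gpc4 in 2+3d-C against F was also -0.12 by DESeq2, -0.13 in the 2 groups alone and -0.046 with silent-family reads subtracted, and Sdc1 in 5d-U against F -0.25 by DESeq2 and -0.11 with those reads subtracted. With a term for those reads they were Gpc6 in 2+3d-C against F (0.26), Sdc1 and Sdc4 in 5d-U against 2d-U (0.21 and 0.12) and Sdc1 in 2d-U against F (-0.18). Without the 4 libraries they were Sdc3, Gpc2, Gpc4 and Gpc6 in 2+3d-C against F (0.14, 2.46, -0.23 and 2.42), Sdc1 in 5d-U against 2d-U (0.51), Gpc2 in 2d-U against F (4.61), and Sdc3, Gpc1 and Gpc6 in 5d-U against F (0.65, 0.22 and 2.26).

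With 1 library left out, direction changed in Gpc6 in 2+3d-C against 5d-U (-0.32 to 0.93), Sdc2 (-0.074 to 0.33) and Gpc1 (-0.61 to 0.32) in 2+3d-C against 2d-U, Gpc4 in 2+3d-C against F (-0.063 to 0.29), Sdc1 in 5d-U against 2d-U (-0.78 to 0.026), and Sdc1 (-0.39 to 0.42) and Gpc2 (-0.13 to 1.38) in 5d-U against F.

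Without TMM, 2+3d-C against 2d-U gave 2537 calls up and 3139 down over all genes (3619 and 1954 with TMM), 142 and 1217 in 2+3d-C against F (438 and 1011), and 126 and 45 in 5d-U against 2d-U (424 and 55), and the median of all genes was -1.24 in 2+3d-C against F (-0.76 with TMM) and 0.65 in 5d-U against 2d-U (1.13 with TMM). The median of all genes in 2+3d-C against 5d-U was -0.11 with a term for silent-family reads, -0.24 with those reads subtracted, and -0.21 in the 2 groups alone. With the replicate block, the medians of release enzymes, other proteoglycans and ligands and receptors in that comparison turned to -0.11, -1.25 and -0.44, and sulfation and trimming had 3 genes called higher and 4 lower.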

Other observations

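The markers of other cells that were not described above moved as follows. The sum of 8 immune markers was 414 to 1086 CPM in F, 5.48 to 76.7 in 2+3d-C, 1.54 to 118 in 5d-U and 0.665 to 2.44 in 2d-U, with Ptprc at 0 in all 2+3d-C and 2d-U libraries. The sum of 6 glial markers was 333 to 375 CPM in F, 237 to 479 in 2+3d-C, 115 to 152 in 5d-U and 94.4 to 143 in 2d-U. For 7 smooth muscle and pericyte markers it was 799 to 1069, 276 to 441, 62.4 to 732 and 62.7 to 87.8 CPM in that order of groups. For 5 plasma cell markers it was 625 to 2240, 1347 to 2651, 115 to 257 and 132 to 142 CPM, nearly all of it Xbp1 outside F, with Igkc at 0 to 2.66 CPM in 2+3d-C. For 7 markers of mature myofibers it was 29.1 to 2563, 66.1 to 199, 165 to 3513 and 52.3 to 89.7 CPM. Plasma cells also carry syndecan-1, and the part of any of these cells in the levels of the members was not tested.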
